A study of Mus musculus with 8 samples.

Results

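The genes described here are the nuclear genes of oxidative phosphorylation, compared between the mouse strains BTBRTF/ArtRbrc (BTBR/R) and C57BL/6J (B6) in cortical and striatal tissue. Members were all probes of the array whose gene symbol starts with Ndufa, Ndufb, Ndufc, Ndufs, Ndufv, Uqcr, Cox4 to Cox8 or Atp5, or is Sdha, Sdhb, Sdhc or Sdhd. The rule uses symbols only, and it found 143 probes of 92 genes among 56605 probes carrying 37074 gene names. By symbol, 70 probes of 45 genes belonged to complex I, 8 probes of 4 genes to complex II, 12 probes of 8 genes to complex III, 18 probes of 17 genes to complex IV and 35 probes of 18 genes to complex V. The Ndufaf genes, 12 probes of 7 genes, encode assembly factors of complex I and were also counted apart from its subunits. Some other symbols do not mark subunits of the complex they are named for: Atp5c1-ps is a pseudogene, Atp5s and Atp5sl are listed by RefSeq as Dmac2l and Dmac2, and Ndufa4 is described with complex IV. Cox7a2l, counted with complex IV, acts in joining complexes III and IV.

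Oxidative phosphorylation takes electrons from NADH at complex I and from succinate at complex II, passes them through coenzyme Q to complex III and through cytochrome c to complex IV, and uses the resulting proton gradient to make ATP at complex V. Most subunits are nuclear gene products that are imported into the mitochondrion, while a small core of complexes I, III, IV and V is encoded by mitochondrial DNA and complex II is wholly nuclear. Neurons depend on this pathway for most of their ATP. Several complex IV subunits exist as paired forms, one found in most tissues and one known from heart and skeletal muscle or testis.

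Total RNA came from whole cerebral cortex with striatum of male mice, 4 of each strain, with 1 array per mouse. All B6 mice and 3 BTBR/R mice were 4 months old, and BTBR/R replicate 1 was 6 months old. The strains are inbred and neither received a treatment. The paper states that B6 mice were bought from a supplier, while BTBR/R mice were provided by a RIKEN resource center. Their housing sites also differed in part. An effect of source or housing therefore cannot be told apart from one of strain. The 8 arrays shared 1 slide, on which all B6 arrays were in one column and all BTBR/R arrays in the other, so an effect of the column cannot be told apart from one of strain. A probe counts as detected where the scanner software called it well above background, which held for 64.5% to 66.8% of probes on the B6 arrays and for 53.5% to 57.2% on the BTBR/R arrays. Values are log2 signals after subtraction of each array's 75th percentile, so 0 is the 75th percentile, and a change is the BTBR/R mean minus the B6 mean. Adjusted p-values are those of limma with Benjamini-Hochberg adjustment over all 56605 probes.

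Of the 143 member probes, 130 probes of 91 genes were detected on all 8 arrays. Another 8 were detected on every B6 array and on 0 to 3 of the BTBR/R arrays, and 5 were detected on no array. Each of those 13 probes, except that of Cox8c, belongs to a gene with another probe detected throughout. Cox8c, a complex IV subunit known from testis, was the sole member gene without a detected probe. Its change of 1.20 (adjusted p = 0.00372, limma) lay below background in both strains, where 67.7% of probes detected on no array also passed 0.05 and 2-fold as higher, so no fold is given. One of the 8 partly detected probes passed the threshold, a Uqcrb probe at chr13:67002057-67002116 (mm9), which was detected on 3 BTBR/R arrays and changed by 0.87 (adjusted p = 0.0174, limma). Both Uqcrb probes detected on all arrays gave −0.09.

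Most members differed little between the strains. Over the 130 probes the median change was 0.01, and the median size of change was 0.05, against 0.12 over all 28547 probes detected on all 8 arrays. The change was smaller than 0.1 in size for 94 member probes (72.3%), compared with 43.2% of all detected probes. For 98 member probes (75.4%) the whole 95% interval lay within a 1.2-fold difference in either direction, compared with 41.2% of all detected probes. Member probes were bright, with a median B6 signal of 4.74 against −0.04 over all detected probes, and had a median standard error of 0.05 against 0.07. The part of brightness in these shares was not tested.

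**Figure D1:**
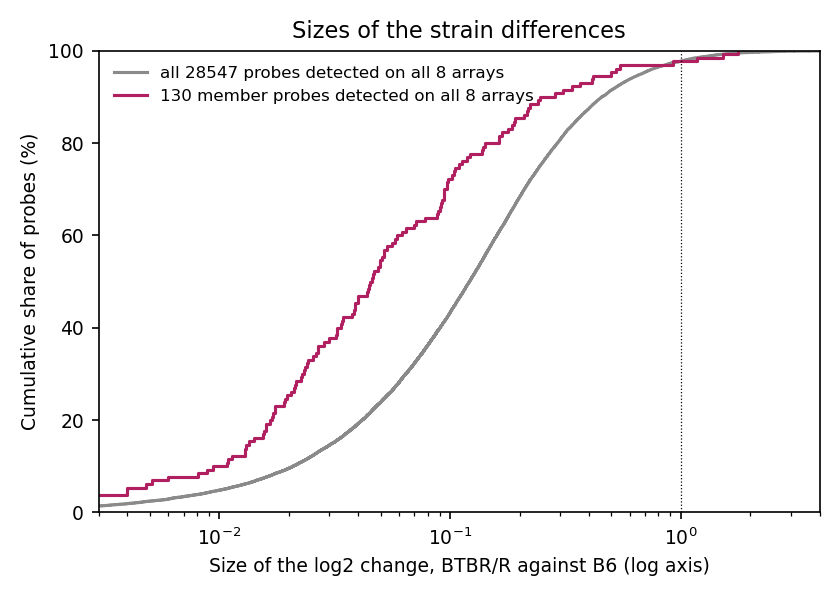
Cumulative share of probes (vertical axis, in percent) against the size of the log2 change between BTBR/R and B6 (horizontal log axis) for the 130 member probes and for all 28547 probes detected on all 8 arrays. The member curve lies to the left of the other up to about the dotted line at 2-fold, and its median size is 0.05 against 0.12.

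In BTBR/R 7 member probes were higher and 15 lower at an adjusted p below 0.05, which is 22 of 130 or 16.9%, while 26.9% of all detected probes passed. Among all detected probes 13.0% passed as higher and 13.9% as lower. There were 3 member probes that also reached 2-fold. Cox7c and Cox7b2 were higher in BTBR/R, where 1.04% of all detected probes were called higher, and Cox6a2 was lower, where 1.16% were called lower. All 3 belong to complex IV. In 34 member probes (26.2%) the values of the 2 strains did not overlap, against 32.6% of all detected probes, and the 13 of these that did not pass had changes of at most 0.21 in size. The share past the threshold depended on the processing: with quantile normalization 19 were higher and 15 lower (26.2%, against 27.3% of all detected probes), with spike-in scaling 19 higher and 5 lower (18.5% against 26.7%), and with a normexp background 11 higher and 14 lower (19.2% against 27.3%).

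**Figure D2:**
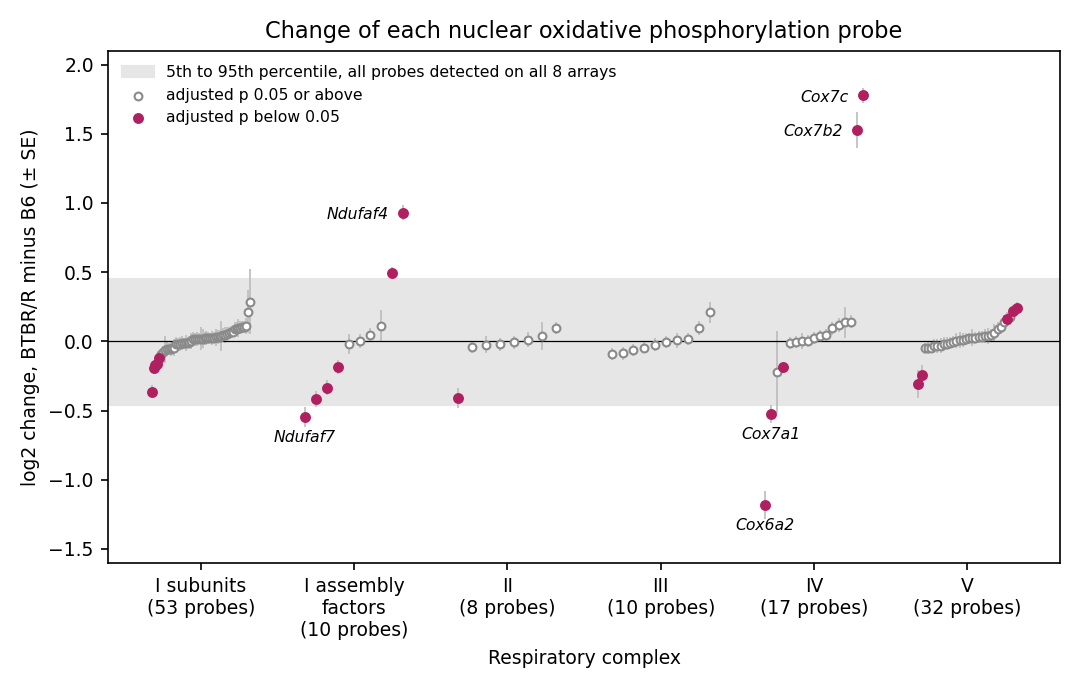
Log2 change (BTBR/R minus B6, vertical axis, bars ± SE) of each member probe detected on all 8 arrays, sorted within each respiratory complex along the horizontal axis, with filled points for an adjusted p below 0.05. Most points lie close to 0 inside the grey band, which spans −0.46 to 0.45, the 5th to 95th percentile of all detected probes; probes beyond 0.5 in size are named.

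Complex I, the NADH dehydrogenase, was represented, apart from the assembly factors, by 53 detected probes of 38 genes, which by symbol include Ndufa4 and Ndufa4l2, with a median change of 0.02. Of these, 5 probes, all lower, passed the threshold, which is 9.43% against the 26.9% of all detected probes. The largest was Ndufc2, an accessory subunit of the membrane arm. Its values were 5.42, 5.42, 5.30 and 5.38 in the B6 mice and 5.05, 5.001, 5.03 and 4.97 in the BTBR/R mice. The strains did not overlap, and the change was −0.37 ± 0.05 (SE, adjusted p = 0.000561, limma), or 1.29-fold lower. Ndufc2 had a single probe, shown here because it carries the clearest subunit difference of complex I:
Ndufc2, chr7:104555383-104555442 (mm9, + strand): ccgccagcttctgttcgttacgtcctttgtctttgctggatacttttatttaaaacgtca

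The other 4 complex I subunit probes that passed had smaller changes. Ndufa12, an accessory subunit next to the NADH-binding arm, changed by −0.19, Ndufa3 by −0.16 and Ndufb10 by −0.12 (adjusted p = 0.0139, 0.0215 and 0.0424, limma). The fourth was a dim Ndufs1 probe at −0.17 (adjusted p = 0.0458), while the bright probe of Ndufs1, which encodes the largest iron-sulfur core subunit, gave 0.03 with a 95% interval of −0.07 to 0.14. Of the other Ndufa3 probes, the brightest gave −0.09 (adjusted p = 0.104, limma), with values that also did not overlap, and a dim one gave 0.04 (adjusted p = 0.806, limma). These calls were close to the threshold. Across the 18 alternative settings Ndufa12 kept its call in 16, Ndufa3 in 13 and Ndufb10 and the Ndufs1 probe in 8 each. Ndufb10 missed the threshold whichever mouse was left out, the Ndufs1 probe without any 1 mouse other than B6 replicate 4, and Ndufa3 without B6 replicate 2, B6 replicate 4 or BTBR/R replicate 4. With spike-in scaling Ndufa12 gave −0.08, Ndufa3 −0.05, Ndufs1 −0.05 and Ndufb10 −0.0080. Other core subunits had changes close to 0: the bright Ndufv1 probe, for the subunit that binds NADH, gave 0.09, Ndufv2 gave −0.05, Ndufs3 0.05, Ndufs7 0.02 and Ndufs8 −0.02. None of these passed the threshold, and their 95% intervals lay between −0.16 and 0.20.

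Among the assembly factors of complex I, 6 of 10 detected probes passed the threshold, beside the 26.9% of all detected probes, from 5 of the 7 genes. Of the 6, 2 were higher and 4 lower, and the median over all 10 was −0.01. Ndufaf4, a factor needed early in building complex I, rose most. Its B6 values were 1.57, 1.65, 1.50 and 1.58, and its BTBR/R values 2.50, 2.43, 2.54 and 2.56. The groups lay far apart, and the change was 0.93 ± 0.05 (SE), with a 95% interval of 0.81 to 1.05 (adjusted p = 2.76e-05, limma), just under 2-fold at 1.90-fold.

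Ndufaf6, another assembly factor, was measured by a pair of detected probes that gave different sizes. At chr4:10978306-10978365 its B6 values were −0.06, −0.02, −0.09 and 0.01 and its BTBR/R values 0.48, 0.43, 0.45 and 0.46. The strains did not overlap at this probe, and the change was 0.50 ± 0.04 (SE, adjusted p = 4.75e-05, limma). The other probe, across a splice junction, gave 0.11 with a 95% interval of −0.16 to 0.38. The changes of the 2 probes lay 0.39 apart.

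Ndufaf7, a methyltransferase that acts in complex I assembly, was lower at both of its probes. At the first, B6 values were 1.32, 1.52, 1.39 and 1.42 and BTBR/R values 0.92, 0.71, 0.92 and 0.94, a change of −0.54 ± 0.07 (SE, adjusted p = 0.00065, limma). At the second, the change was −0.41 ± 0.06 (SE, adjusted p = 0.000768, limma), again without overlap. Ndufaf1 gave −0.34 and Ndufaf2, a paralog of Ndufa12, gave −0.19 (adjusted p = 0.00202 and 0.0252, limma). The call of Ndufaf1 was lost with spike-in scaling alone (−0.22, adjusted p = 0.0537, limma). The call of Ndufaf2 held in 11 of the 18 alternatives and was lost without B6 replicate 2 or 4 or BTBR/R replicate 1, 2 or 3. Ndufaf3 (0.05) and Ndufaf5 (−0.02 and 0.00) did not pass. The probe sequences of Ndufaf4 and Ndufaf7, the factors with the largest changes in each direction, are given 5′ to 3′, with the mm9 interval and strand:
Ndufaf4, chr4:24830285-24830344 (+): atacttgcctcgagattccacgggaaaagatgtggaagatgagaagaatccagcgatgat
Ndufaf7, chr17:79345742-79345801 (+): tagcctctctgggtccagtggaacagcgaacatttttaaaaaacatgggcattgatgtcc
Ndufaf7, chr17:79346307-79346366 (+): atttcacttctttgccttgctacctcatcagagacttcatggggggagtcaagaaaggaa

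Complex II, succinate dehydrogenase, had all 8 of its probes detected on all arrays, with a median change of −0.01. One of the 8 passed the threshold (12.5%, against the 26.9% of all detected probes), a probe of Sdhb, the iron-sulfur subunit that hands electrons from the flavoprotein Sdha to coenzyme Q. Its 60 bases fall within 4568 bases of genome, so it crosses at least 1 splice junction. Its B6 values were 3.59, 3.65, 3.56 and 3.72 and its BTBR/R values 3.16, 3.09, 3.27 and 3.35. All BTBR/R mice were below all B6 mice, and the change was −0.41 ± 0.07 (SE, adjusted p = 0.00296, limma). The call was lost with spike-in scaling alone (−0.30, adjusted p = 0.0562, limma).

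The other Sdhb probe, further along the gene, gave 5.75, 5.69, 5.70 and 5.79 in B6 and 5.68, 5.75, 5.83 and 5.71 in BTBR/R. These overlapped, and the change was 0.01 with a 95% interval of −0.11 to 0.13. The changes of the 2 probes lay 0.42 apart. The brightest Sdha probe, for the flavoprotein, gave −0.01 (95% interval −0.11 to 0.10) and its other 3 probes −0.02 to 0.04. The membrane anchors Sdhc and Sdhd gave −0.04 (−0.14 to 0.06) and 0.10 (0.00 to 0.20). The Sdhb probe sequences are given because the gene's reading depends on which is used, the first whole and the second by its first 30 bases:
Sdhb, chr4:140522514-140527081 (mm9, +): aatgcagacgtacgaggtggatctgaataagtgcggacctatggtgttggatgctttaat
Sdhb, chr4:140535052-140535108 (mm9, +): tgtcaaacagctggagtctccctaagtaca

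Complex III, the cytochrome bc1 complex, had 10 probes detected on all arrays, of all 8 genes, and a median change of −0.01. None of the 10 passed the threshold, against 26.9% of all detected probes. Uqcrc2, a core protein of the matrix side, had the largest change. Its values were 4.87, 4.83, 4.86 and 4.87 in B6 and 4.88, 5.01, 5.17 and 5.21 in BTBR/R. The BTBR/R values spread over a wider range but did not overlap those of B6, and the change was 0.21 with a 95% interval of 0.03 to 0.39 (adjusted p = 0.0711, limma). The Rieske iron-sulfur protein Uqcrfs1 gave 0.01 (95% interval −0.12 to 0.13), and the other probes lay between −0.09 and 0.10.

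Complex IV, cytochrome c oxidase, had 17 detected probes with a median change of 0.02, and 5 of them (29.4%) passed the threshold, a share close to the 26.9% of all detected probes. The range was the widest of the complexes, from −1.18 for Cox6a2 to 1.78 for Cox7c. The housekeeping subunits Cox4i1, Cox6a1, Cox6c, Cox7b and Cox8a had changes of 0.00, −0.01, −0.01, 0.02 and 0.05. Their 95% intervals lay between −0.12 and 0.15. Cox5a changed by 0.14 (adjusted p = 0.0514, limma) and Cox6b1 by 0.12 (adjusted p = 0.103, limma).

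Cox7c, a small subunit of complex IV found in most tissues, gave the largest change of all members at one of its 2 probes. Its 60 bases fall within 878 bases of genome, so this probe crosses a splice junction. B6 values were 1.71, 1.62, 1.70 and 1.67, and BTBR/R values were 3.47, 3.38, 3.55 and 3.42. The strains were widely separated, and the change was 1.78 ± 0.05 (SE), with a 95% interval of 1.65 to 1.90 (adjusted p = 2.01e-06, limma), or 3.43-fold.

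The other Cox7c probe did not show this. Its first 10 bases match the end of the RefSeq start window, which places it from base 41 of the transcript. B6 values were 4.86, 4.86, 4.78 and 4.94 and BTBR/R values 4.92, 4.95, 4.99 and 4.97. They overlapped, and the change was 0.09 with a 95% interval of −0.02 to 0.21 (adjusted p = 0.168, limma). The changes of the 2 probes lay 1.68 apart, and differences in sequence between the strains under a probe were not tested. The first 30 bases of each, in the order given above, are:
Cox7c, chr13:86184486-86185363 (mm9, − strand): aaataaggatatttaattcatccctttaac
Cox7c, chr13:86186301-86186360 (mm9, − strand): tgtagaaaggagagttaggtggtacggcca

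**Figure D3:**
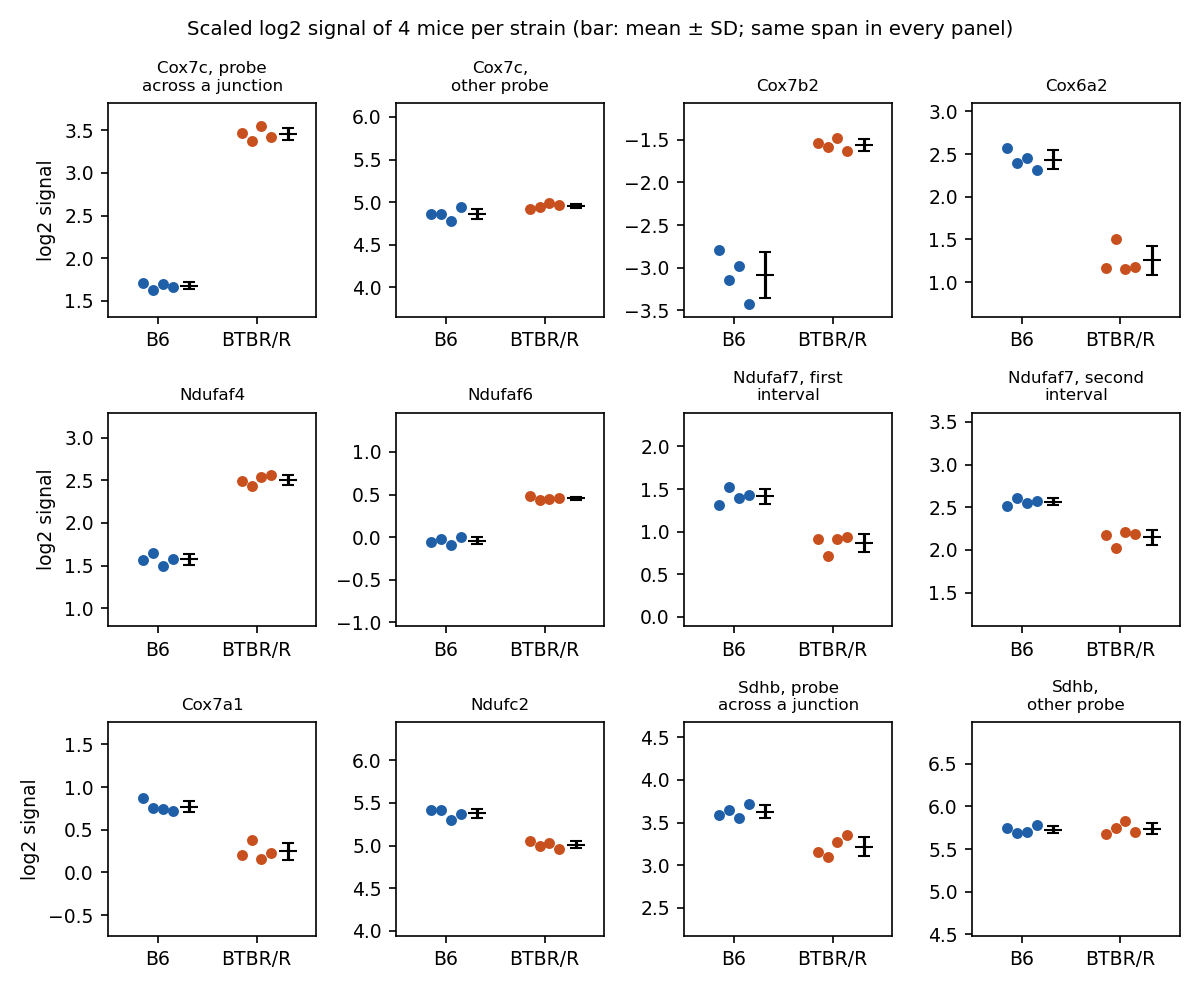
Scaled log2 signal (vertical axis, with the same span in every panel) of each B6 and BTBR/R mouse for 12 member probes, with points for mice and bars for the mean ± SD of 4 mice. The strains separate in every panel except those of the other Cox7c probe and the other Sdhb probe, where the points overlap.

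Cox6a2 encodes the form of subunit 6a known from heart and skeletal muscle, and in brain from parvalbumin interneurons, where Cox6a1 is the form of most tissues. Cox6a2 values were 2.58, 2.40, 2.45 and 2.31 in B6 and 1.17, 1.51, 1.16 and 1.18 in BTBR/R. Every BTBR/R mouse lay below every B6 mouse, and the change was −1.18 ± 0.10 (SE), with a 95% interval of −1.41 to −0.95 (adjusted p = 4.25e-05, limma), or 2.27-fold lower. In tissue RNA, fewer cells expressing a gene and less RNA per cell cannot be told apart. None of the 4 parvalbumin interneuron markers passed the threshold, with Pvalb at 0.07, Gad1 at 0.19, Kcns3 at −0.16 and Syt2 at −0.13 (adjusted p = 0.56, 0.155, 0.127 and 0.152, limma). Their summed linear signal was 22.7 to 26.5 in B6 and 24.7 to 28.0 in BTBR/R, most of it from Pvalb and Gad1, and Gad1 is also expressed by other GABA neurons.

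Cox6a1 gave 8.59, 8.52, 8.61 and 8.56 in B6 and 8.59, 8.57, 8.61 and 8.50 in BTBR/R. These values overlapped fully, and the 95% interval of the change was −0.11 to 0.10. The change of Cox6a2 differed from that of Cox6a1 by −1.18 (two-sided exact permutation test over the 8 arrays, p = 0.0286, the smallest this design allows, adjusted p = 0.0667 over 7 pairs of forms, which is the smallest that 3 pairs at the lowest possible p could reach). The first 30 bases of the probes of both forms are shown to mark where the readings come from:
Cox6a2, chr7:135349160-135349219 (mm9, − strand): agcaatcttcaaattggccttctgcacacc
Cox6a1, chr5:115795726-115795785 (mm9, − strand): ggaccacgaaaaccctttggatgctaagct

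Cox7b2 is the form of subunit 7b known from testis. It was dim, with values of −2.79, −3.15, −2.98 and −3.43 in B6 and −1.54, −1.59, −1.48 and −1.64 in BTBR/R. The BTBR/R mice all lay above the B6 mice, and the change was 1.53 ± 0.13 (SE, 95% interval 1.22 to 1.84, adjusted p = 5.11e-05, limma), or 2.88-fold. Under normexp background correction it was 1.01, the lowest of the settings tried. Cox7b, the form of most tissues, gave 0.02 (95% interval −0.08 to 0.12), and the 2 changes differed by 1.50 (two-sided exact permutation test, p = 0.0286, adjusted p = 0.0667 over 7 pairs). The first 30 bases of each probe are:
Cox7b2, chr5:71834167-71834226 (mm9, − strand): cccaagagtggaagaagaagtaaatatctt
Cox7b, chrX:103217214-103217271 (mm9, + strand): gctgaatgccaagtcaaagaatcatgtact

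Both forms of subunit 7a were lower. Cox7a1, the heart and skeletal muscle form, gave 0.87, 0.76, 0.74 and 0.72 in B6 and 0.21, 0.38, 0.16 and 0.23 in BTBR/R. The strains did not overlap, and the change was −0.53 ± 0.07 (SE, adjusted p = 0.000445, limma), or 1.44-fold lower. Cox7a2, the form of most tissues, changed by −0.19 ± 0.04 (SE, adjusted p = 0.00987, limma), a call that was lost with spike-in scaling (−0.07, adjusted p = 0.432, limma) and with the replicate block (adjusted p = 0.0637, limma). The 2 changes differed by −0.34 (two-sided exact permutation test, p = 0.0286, adjusted p = 0.0667 over 7 pairs). The files place 25 bases of the Cox7a2 probe on the genome, while the Cox7a1 probe spans a junction:
Cox7a1, chr7:30970337-30970948 (mm9, + strand): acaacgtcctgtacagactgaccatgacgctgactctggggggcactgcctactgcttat

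In the remaining pairs neither form passed the threshold. Cox4i2, an alternative to Cox4i1 known from lung, gave 0.00 with a 95% interval of −0.13 to 0.14. Cox6b2, the testis form of Cox6b1, gave 0.14 (−0.12 to 0.40), and Cox8b, the heart and muscle form of Cox8a, gave −0.22 with a wide interval of −0.92 to 0.48. Ndufa4, a protein that copurifies with complex IV despite its name, gave 0.07 (−0.03 to 0.17) and its relative Ndufa4l2 gave 0.03 (−0.11 to 0.17). Cox7a2l, which acts in joining complexes III and IV, gave 0.04 (−0.07 to 0.14).

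**Figure D4:**
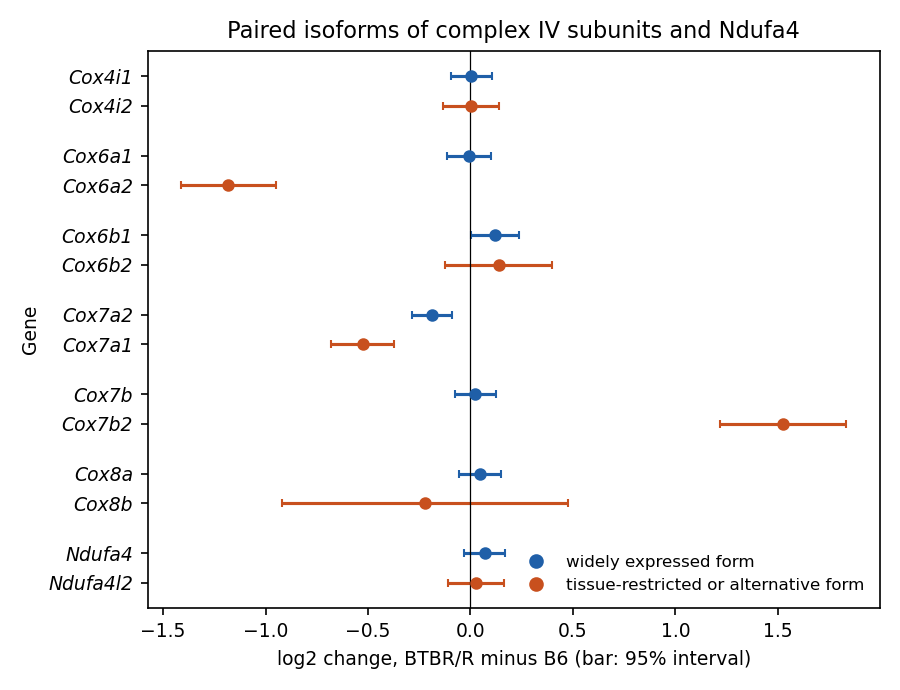
Log2 change (BTBR/R minus B6, horizontal axis) with its 95% interval for 7 pairs of related forms, the more widely expressed in blue and the other in orange. Cox6a2 and Cox7a1 lie below 0 and Cox7b2 above it, with Cox7a2 slightly below 0, while the intervals of Cox4i1, Cox4i2, Cox6a1, Cox6b2, Cox7b, Cox8a, Cox8b, Ndufa4 and Ndufa4l2 include 0.

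Complex V, the ATP synthase, had 32 detected probes of 18 genes and a median change of 0.02. The threshold was passed by 5 probes (15.6%, against the 26.9% of all detected probes), 3 higher and 2 lower, and none reached 2-fold. Atp5g2 rose by 0.22 and one Atp5g1 probe by 0.16 (adjusted p = 0.00905 and 0.0269, limma). Atp5g1, Atp5g2 and Atp5g3 encode the same mature c subunit, which forms the rotating ring. The bright Atp5g3 probe gave 0.01 (95% interval −0.11 to 0.13), and the other Atp5g1 probes gave 0.14 and −0.02. The Atp5g2 call was lost with the replicate block alone (adjusted p = 0.0528, limma). The Atp5g1 call held in 11 of the 18 alternatives and was lost without B6 replicate 2, 3 or 4 or BTBR/R replicate 3 or 4.

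Atp5j2, the f subunit of the membrane part, gave opposite changes at its 2 detected probes. At the bright probe, which crosses a junction, B6 values were 5.21, 5.24, 5.20 and 5.16 and BTBR/R values 5.44, 5.43, 5.47 and 5.44, a change of 0.24 ± 0.04 (SE, adjusted p = 0.00226, limma). At the dim probe, B6 values were −0.51, −0.36, −0.44 and −0.45 and BTBR/R values −0.74, −0.82, −0.52 and −0.65, a change of −0.24 ± 0.07 (SE, adjusted p = 0.0345, limma). Neither pair of groups overlapped, and the changes lay 0.49 apart. The higher call of the bright probe held in all 18 alternatives. The lower call of the dim probe held in 9, with changes of −0.30 to −0.13 and adjusted p up to 0.315, and was lost without any 1 mouse other than B6 replicate 1 or BTBR/R replicate 3. Atp5s, which RefSeq names Dmac2l, was lower by −0.31 (adjusted p = 0.0494, limma) with overlapping values, and its call held in 6 of the 18 alternatives and, of the mice left out, only without BTBR/R replicate 1. The catalytic β subunit Atp5b gave −0.05, −0.04 and −0.03 at its 3 probes, the γ subunit Atp5c1 0.04 and the stalk subunit Atp5o 0.00 and 0.03.

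Of the 31 member genes with several probes detected on all arrays, 26 had probes whose changes lay within 0.25 of each other, and the median range was 0.08. Cox7c alone had a range of at least 1, and Atp5j2, Sdhb, Ndufaf6 and Ndufb2 had ranges of 0.49, 0.42, 0.39 and 0.30. The 5th gene, Ndufb2, a complex I subunit, reached its range through a dim probe at 0.29 with a 95% interval of −0.27 to 0.84. These gaps between probes are given with no test, since the genes were singled out by their size. The members that passed lay on many chromosomes, with 4 of 14 detected member probes on chromosome 7, where 31.3% of all detected probes passed, 3 of 8 on chromosome 4 (30.6%), 3 of 5 on chromosome 5 (23.9%), of which 2 are the Atp5j2 probes, and 3 of 10 on chromosome 17 (28.9%).

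Nuclear genes of this pathway are known to share promoter elements bound by NRF1, by ETS factors such as GABP, and by YY1. RefSeq start windows (250 bases before to 50 after the start, GRCm38.p6) were matched to 75 member genes and searched on both strands for GCGCA and GCGC with 1 base of any kind between them (NRF1), CCGGAAG (ETS) and AAGATGGC (YY1); the ETS and YY1 letters can overlap by AAG. The NRF1 letters were in 19 of 75 member windows (25.3%) and 5.13% of the windows of 26950 other genes, the ETS letters in 17 (22.7%) and 9.89%, and the YY1 letters in 11 (14.7%) and 3.16%. At least 1 of the 3 was in 41 member windows (54.7%) and 16.3% of the others. These are matches of letters and not measured binding. Of the 17 member genes with a probe past the threshold 6 held a match, and of the 58 others 35 did.

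The 250 bases before the start are given for Ndufaf4, the assembly factor that rose most, and Cox6a1, which was nearly the same in both strains, because both hold the NRF1 letters. Capitals mark the motif matches, and the coordinates are of GRCm38.p6:
Ndufaf4, chr4:24897833-24898082 (+): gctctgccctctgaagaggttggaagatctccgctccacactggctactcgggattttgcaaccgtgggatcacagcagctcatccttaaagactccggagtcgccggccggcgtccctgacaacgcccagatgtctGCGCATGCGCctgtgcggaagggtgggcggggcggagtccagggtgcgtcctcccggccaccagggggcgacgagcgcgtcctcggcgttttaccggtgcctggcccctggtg
Cox6a1, chr5:115348959-115349208 (− strand): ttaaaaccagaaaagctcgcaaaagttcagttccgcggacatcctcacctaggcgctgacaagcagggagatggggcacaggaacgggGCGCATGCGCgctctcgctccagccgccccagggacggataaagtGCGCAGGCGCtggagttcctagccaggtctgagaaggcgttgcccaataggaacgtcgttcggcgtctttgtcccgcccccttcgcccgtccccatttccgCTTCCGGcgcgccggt

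Other genes related to the pathway were taken from lists outside the rule. The first list holds every probe placed on mitochondrial DNA, including some that do not carry the symbol of a pathway gene. Of the 16 probes placed on mitochondrial DNA, all detected on all arrays, 3 passed as lower and none as higher (18.8%, against 26.9% of all detected probes), with a median of −0.11. They were the complex I subunits ND5 (−0.30, adjusted p = 0.00184, limma) and ND1 (−0.23, adjusted p = 0.0402, limma), and an Ensembl transcript probe in the ND4L region of the mitochondrial genome (−0.24, adjusted p = 0.0334, limma). The ND4L probe that overlaps this last one gave −0.18 and did not pass (adjusted p = 0.0601, limma). The count also moved with the processing, to 7 lower with median scaling, 6 lower and 1 higher with normexp and 1 lower with quantile normalization. COX1, COX2 and CYTB, core subunits of complexes IV and III, gave −0.12, −0.02 and −0.10 and did not pass. The direction depends on the scaling: with the arrays scaled on spike-in RNA the 16 probes had a median of 0.01, with 8 above and 8 below 0 and 1 past the threshold in each direction, while the median over all detected probes moved from 0.00 to 0.12. The nuclear members had a median of 0.13 under that scaling. Spike-in scaling subtracts the same value from every probe of an array, so it cannot change where a list lies relative to the middle of all probes. With quantile normalization the 16 probes had a median of −0.04, with 11 below and 5 above 0.

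Assembly factors of the other complexes, with those of complex I outside the Ndufaf names, had 64 detected probes, of which 11 passed as higher and 6 as lower (26.6%, against 26.9% of all detected probes). Acad9, an acyl-CoA dehydrogenase relative that acts in complex I assembly, was measured by 4 probes. At chr3:35990197-35990256 its values were 1.47, 1.44, 1.41 and 1.52 in B6 and 0.26, 0.10, 0.18 and 0.27 in BTBR/R. The strains did not overlap there, and the change was −1.26 ± 0.06 (SE, adjusted p = 1.19e-05, limma). A dim probe, detected in the 4 B6 mice and in 0 BTBR/R mice, was at least 1.61-fold lower, where the bound uses the lowest detected signal of each BTBR/R array. Its bright probe gave 0.10 and another −0.20 (adjusted p = 0.00712, limma), so the probes of Acad9 did not give one size.

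Lyrm7, which helps insert the Rieske protein into complex III, was detected in B6 and in no BTBR/R mouse at 2 probes, at least 3.07-fold and 2.43-fold lower. Sdhaf1, which helps load the iron-sulfur clusters of Sdhb, changed by −0.66 (adjusted p = 2.76e-05, limma). Coa4 (0.77 at both probes) and Cox18 (0.68 and 0.71), which act in complex IV assembly, were higher, as was Ecsit (0.42), a complex I assembly factor (adjusted p from 4.51e-05 to 0.000603, limma).

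In coenzyme Q synthesis 5 of 19 detected probes passed as higher and 2 as lower (36.8%, against 26.9% of all detected probes), with a median of 0.16. Coq7, the hydroxylase of a late step, rose by 0.67 and 0.74 at 2 of its 3 probes (adjusted p = 8.98e-05 and 2.76e-05, limma). Pdss2, which helps make the isoprenoid tail, had one probe at −0.77 (adjusted p = 5.15e-05, limma) and another at 0.20, which did not pass. Among electron carriers and ATP exchange 1 of 21 probes passed (4.76%), a dim Etfa probe at −0.23, while the brighter Etfa probes gave −0.05 and −0.06 (adjusted p = 0.481 and 0.533, limma). In the citric acid cycle 5 of 36 passed (13.9%), among them Fh1, fumarase, at 0.36 and a dim Suclg1 probe at −0.62, where the brighter Suclg1 probe gave −0.11 (adjusted p = 0.128, limma). In the list of mitochondrial biogenesis and mtDNA expression 7 of 30 passed (23.3%), 4 higher and 3 lower. The higher were probes of the regulators Pprc1 (0.28) and Esrra (0.18) and 2 Ppargc1b probes (0.20 and 0.31). The lower were a probe each of Mterf1a (−0.35), Gabpb1, a subunit of GABP (−0.17, adjusted p = 0.0406, limma), and Nrf1, the dimmer of its 2 detected throughout (−0.29, adjusted p = 0.04998, limma). The brighter Nrf1 probe gave 0.00 (95% interval −0.13 to 0.14, adjusted p = 0.958, limma), and another, detected on 3 BTBR/R arrays, gave −0.54 (adjusted p = 0.00249, limma).

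**Figure D5:**
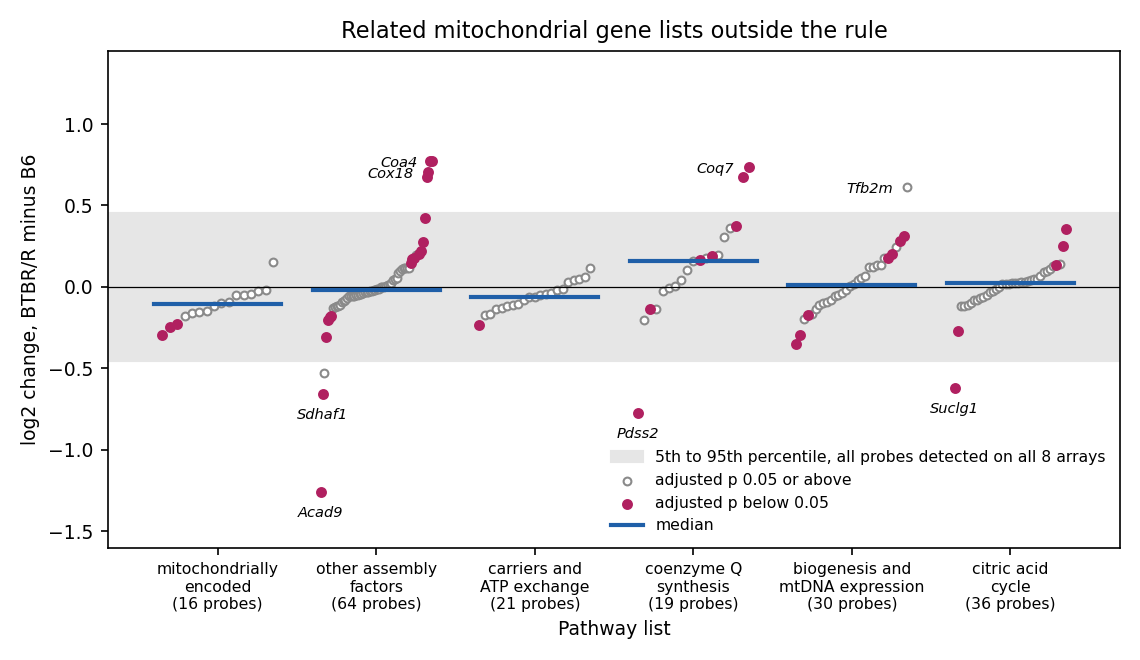
Log2 change (BTBR/R minus B6, vertical axis) of each probe detected on all 8 arrays in 6 related lists (horizontal axis), with filled points for an adjusted p below 0.05, a blue line for the list's median and the same grey band as for the members. Acad9 lies lowest at −1.26, and Coa4, Cox18 and Coq7 lie above the band.

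Cell type markers moved to different degrees, and their counts stand beside 13.0% of all detected probes that passed as higher and 13.9% as lower. Of 5 neuron markers 1 passed as higher (Eno2, 0.13), with summed linear signals, over the brightest probe of each gene, of 322 to 333 in B6 and 320 to 330 in BTBR/R. Of 8 striatal projection neuron markers 1 passed as lower (Pde10a, −1.07), with sums of 185 to 196 and 168 to 190. Of 5 microglial markers 3 passed as lower and 1 as higher (sums 19.4 to 20.6 and 14.1 to 15.7), of 4 endothelial markers 2 as lower (sums 30 to 34.6 in B6 and 24.3 to 27.4 in BTBR/R) and of 3 red blood cell markers all 3 as lower (79.4 to 263 and 53.9 to 66.9). Of 5 astrocyte markers 2 and of 5 oligodendrocyte markers 1 passed as lower, and none of 4 choroid plexus markers passed. Their part in the member changes was not tested.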

How the data were processed

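Total RNA of 8 mice was labelled with Cy3 and hybridised to Agilent 1-colour mouse arrays. The authors scanned the arrays and extracted spot intensities with Agilent Feature Extraction 10.7.3.1, and the deposited scanner files give the background-corrected intensity of each spot. The authors also deposited a table of log2 values, which differ from the log2 scanner values by 1 constant per array in 99.97% to 99.99% of probes (within 0.01) and were used as an alternative. Samples were grouped by the strain in the labels.

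Control and outlier spots were left out, repeated spots were averaged, and the log2 of the processed signal was reduced by each array's 75th percentile. All 56605 probes were fitted with limma 3.58.1 (R 4.3.3) and adjusted by Benjamini-Hochberg, and a call needed an adjusted p below 0.05 and at least 2-fold. Counts cover probes detected on all 8 arrays. The number of arrays limits the precision. Differences between the changes of 7 pairs of related forms were tested by exact permutation over the 8 arrays, a test added after the values were seen. The fit was tested on simulated data. Coordinates are those of the scanner files (mm9), and promoters are from RefSeq (GRCm38.p6), with 114 of 143 member probes matched to a RefSeq symbol by accession.

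The members and lists were chosen with earlier results of these data known. The text names member probes that were called, the 3 largest past the threshold in each complex, the isoform pairs, all Sdh probes and pathway genes called in either strain; the other members past the threshold, and the remaining pathway genes, were named after their values were seen. The alternatives were normexp background correction, quantile, median, detected-probe and spike-in scaling, the deposited log2 values, a dim-probe filter, the methods' t-test, limma with trend and robust settings, a replicate block and leaving out each mouse. Members that are not named enter the counts only.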

Additional observations from a re-analysis of the deposited data

Results flagged for a closer look

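In 2 of 46 sets of 4 mice examined, those of each strain at the 22 member probes past the threshold and the other Cox7c probe, 1 mouse lay far from the other 3, where chance gives about 1 in 20 sets. Both were BTBR/R replicate 2. For Cox6a2 it gave 1.51, above the other BTBR/R mice at 1.16 to 1.18 and below every B6 mouse. For the Ndufaf7 probe at chr17:79345742-79345801 (mm9) it gave 0.71, below the other BTBR/R mice at 0.92 to 0.94, which is away from the B6 values.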

How the results depend on the processing

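Across the 18 alternatives, Cox7c (1.73 to 1.89, at the probe across a junction), Cox7b2 (1.01 to 1.64) and Cox6a2 (−1.27 to −1.07) remained past 2-fold and the threshold, and 10 of 23 member probes, the 22 past the threshold and the other Cox7c probe, kept their side of the threshold throughout; none reversed. Ndufaf4 (0.89 to 1.04), Ndufaf6, both Ndufaf7 probes, Cox7a1, Ndufc2 and the bright Atp5j2 probe were the others of these 10. The Sdhb probe across a junction and Ndufaf1 missed the threshold with spike-in scaling alone (adjusted p = 0.0562 and 0.0537, limma), and the other Cox7c probe passed with quantile normalization alone (0.11, adjusted p = 0.0457, limma). Against 7 higher member probes past the threshold there were 11 with normexp, 19 with quantile normalization, 19 with spike-in scaling, 14 with the methods' t-test and 20 with limma's trend and robust settings; against 15 lower there were 5 with spike-in scaling and 8 with the replicate block. With the methods' t-test 23.1% of member probes and 29.5% of all detected probes passed. With the trend and robust settings 26.9% of member probes and 32.7% of all detected probes passed. The cause was not tested. Leaving out 1 mouse gave 6 to 9 higher and 9 to 12 lower, the lowest without B6 replicate 2 (9 lower). The share of all detected probes past the threshold fell too, from 26.9% to between 20.2% and 23.4%. It was also lowest without B6 replicate 2. Without the 6-month-old BTBR/R replicate 1 there were 9 higher and 11 lower. With the replicate block 13 of 130 member probes passed, against 17.8% of all detected probes. The replicate number was also the row on the slide in both strains. Deviations from the strain means correlated at 0.00, −0.07, −0.04 and 0.16 for mice with the same number. For mice with different numbers the correlations ran from −0.13 to 0.15. These few values cannot decide whether mice with the same number shared an effect. The median of complex I was −0.0056 with normexp and −0.0106 with median scaling. Median scaling gave −0.0406 for complex III, −0.0045 for complex IV and −0.0094 for complex V, and quantile normalization gave 0.0677 for complex IV. Spike-in scaling gave 0.13, 0.10, 0.10, 0.14 and 0.13 for complexes I to V, beside a shift of the median of all detected probes to 0.12. The medians over single left-out mice ran from −0.0047 to 0.03 for complex I, −0.03 to 0.00 for complexes II and III, 0.02 to 0.04 for complex IV and 0.0049 to 0.03 for complex V. Signals near background limit what dim probes such as Cox7b2 can show, since the lowest detected signal was 14.5 to 17.8 on B6 arrays and 36.1 to 47.1 on BTBR/R arrays.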
